A study of Mus musculus with 9 samples.

Results

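The genes described here are 38 genes of redox defence in mouse macrophages, covering the transcription factor NRF2 with its sensor and targets, the glutathione, glutaredoxin, thioredoxin and peroxiredoxin systems, superoxide dismutases with catalase, methionine sulfoxide reductases and metallothioneins. They were chosen by symbol from a fixed list, and 37 of the 38 have a row in all 9 files, out of 12474 rows in all. The remaining gene, the quinone reductase Nqo1, is not analysed here. All 37 passed the filter on low values, as did 11156 rows in all.

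Polyadenylated RNA was sequenced from RAW264.7 cells, a macrophage-like mouse line labelled as wild type. Mock cells were untreated, M1 cells received lipopolysaccharide (LPS) at 100 ng/ml with mouse interferon gamma at 50 ng/ml, and I cells received the same agents together with potassium iodide at 20 mM. Each group has 3 libraries. The labels used here give neither the length of treatment nor whether replicates were separate cultures. P-values therefore weigh a difference only against the spread of these libraries, and that spread may be technical. All groups are 1 cell line, and no library had another potassium salt, so effects of iodide, of potassium and of osmolarity cannot be told apart.

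As background, NRF2 is held low in resting cells because KEAP1 presents it to a ubiquitin ligase. When electrophiles or oxidants modify KEAP1, NRF2 accumulates and switches on genes that carry antioxidant response elements. Many of its targets make or use glutathione and thioredoxin, the main thiol reductants of the cell, which in turn feed the glutaredoxins and peroxiredoxins. Macrophages stimulated with LPS produce superoxide and nitric oxide, and these systems dispose of the peroxides that follow.

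Library totals recovered from the values were 17431070 to 25470730 fragments, so 1 fragment on a gene of 1 kb was worth 0.039 to 0.057 FPKM, a level per gene length and library total. Apart from Mt2, which had 1 to 20 fragments per library, every one of these genes had at least 40 fragments in each library. All 8 macrophage markers checked had a row, and their summed level was 4592 to 4686 FPKM in Mock libraries. It was lower in M1, at 3257 to 3362, and lowest in I, at 2368 to 2483, and the part of that difference in the results was not tested. The 19 markers of lymphocytes, fibroblasts, epithelium and neutrophils are not analysed here. Values are relative to the library total, so fewer cells with a gene and less of its RNA per cell cannot be told apart.

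These genes moved in both directions with polarization, and in I vs M1 more of them were lower than higher. In M1 vs Mock 16 of the 37 were higher, Mt2 among them, and 17 lower at a limma adjusted p under 0.05. Mt2 passed the filter only through M1 and I, so its calls against Mock are no support for a rise. Of all genes tested 30.5% were higher and 55.3% lower (85.8% in either direction). In I vs M1 8 were higher and 22 lower, beside 24.9% of all genes higher and 39.3% lower (64.2% in either direction). In I vs Mock 14 were higher and 22 lower, beside 28.2% and 58.6% of all genes (86.8% in either direction). The median log2 fold change of the 37 genes was 0.02 in M1 vs Mock, where that of all genes was −0.23, and −0.26 in I vs M1, where that of all genes was −0.07. With so many calls in the background, the size of a change says more than the call. The 3 comparisons share libraries, and each is given with its own values.

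The direction of small changes against Mock depends on the scaling. Median-of-ratios (RLE) scaling moved the median of all genes in M1 vs Mock from −0.23 to 0.02, and trimmed-mean (TMM) scaling moved it to 0.03. With RLE the split in M1 vs Mock became 23 higher and 12 lower among the 37 genes and 4870 higher and 4693 lower among all genes. In I vs M1 the 37 genes were split 9 higher and 21 lower under both scalings, while all genes had 3483 higher and 3544 lower with TMM. Against Mock, I had 16 of the 37 genes higher and 17 lower under both scalings, and 4783 genes higher and 4766 lower in all with RLE.

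**Figure D1:**
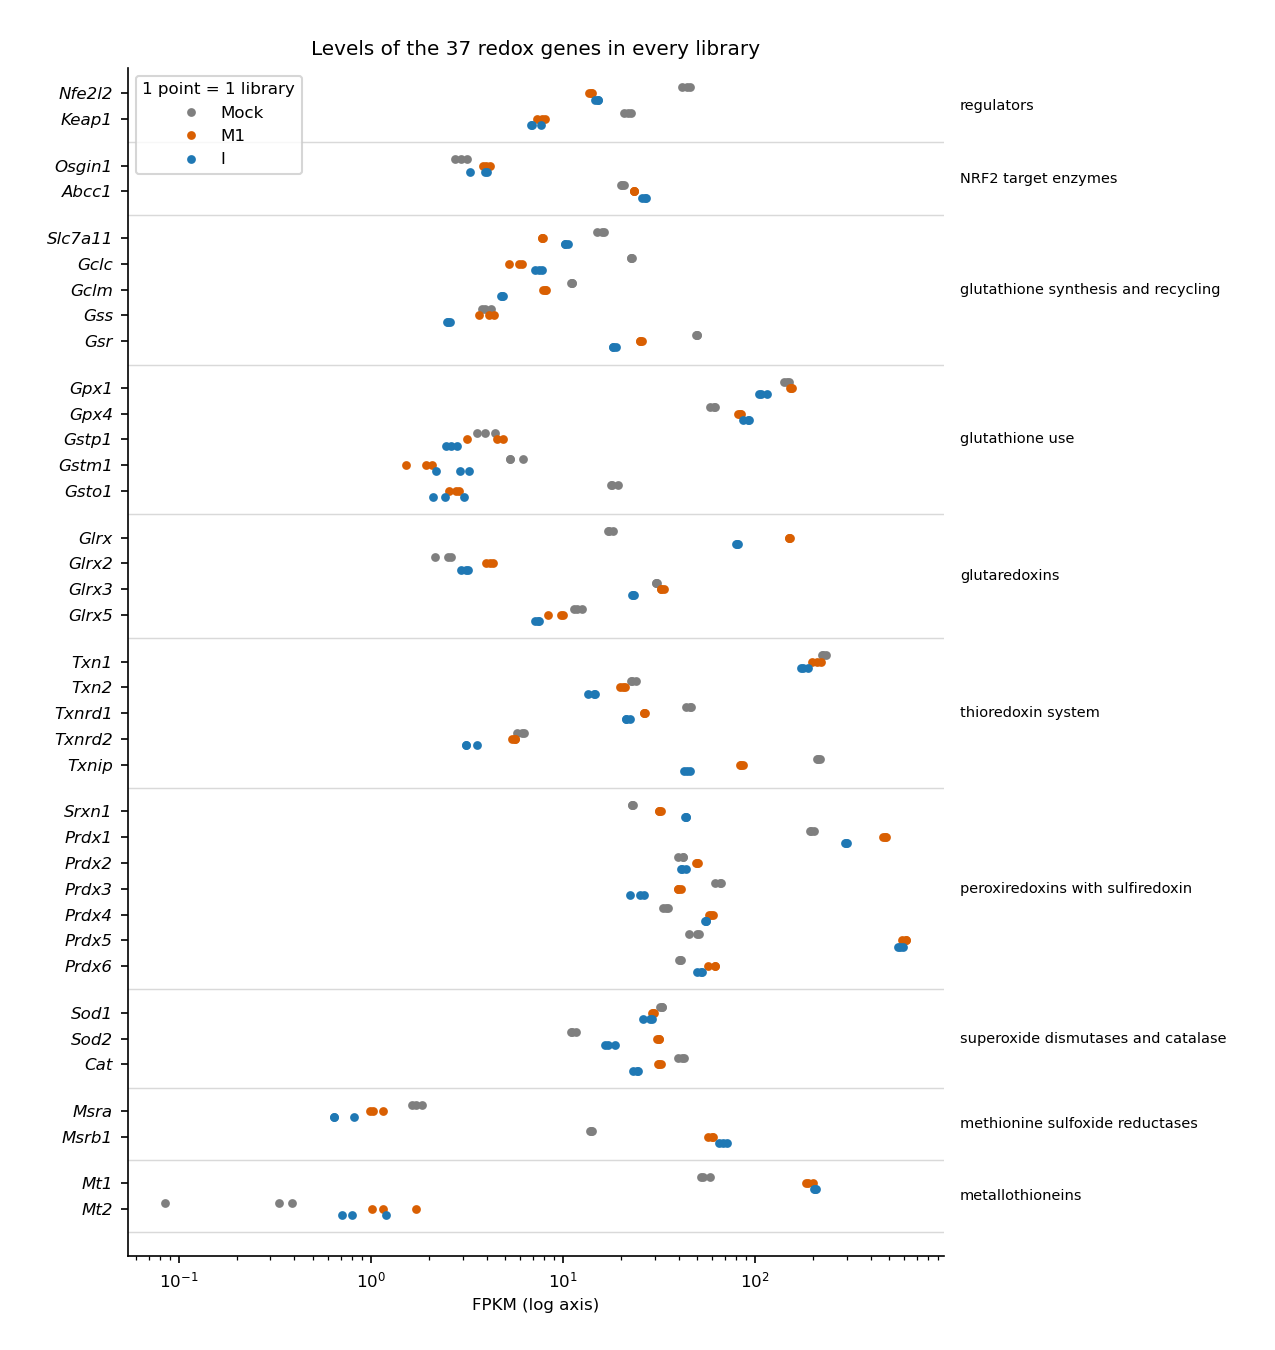
FPKM (log axis) of each of the 37 genes in every library, grouped by role, with Mock in grey, M1 in orange and I in blue and 1 point per library. Libraries of a group mostly lie close together, and Prdx5 and Glrx show the widest gaps between Mock and M1.

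**Figure D2:**
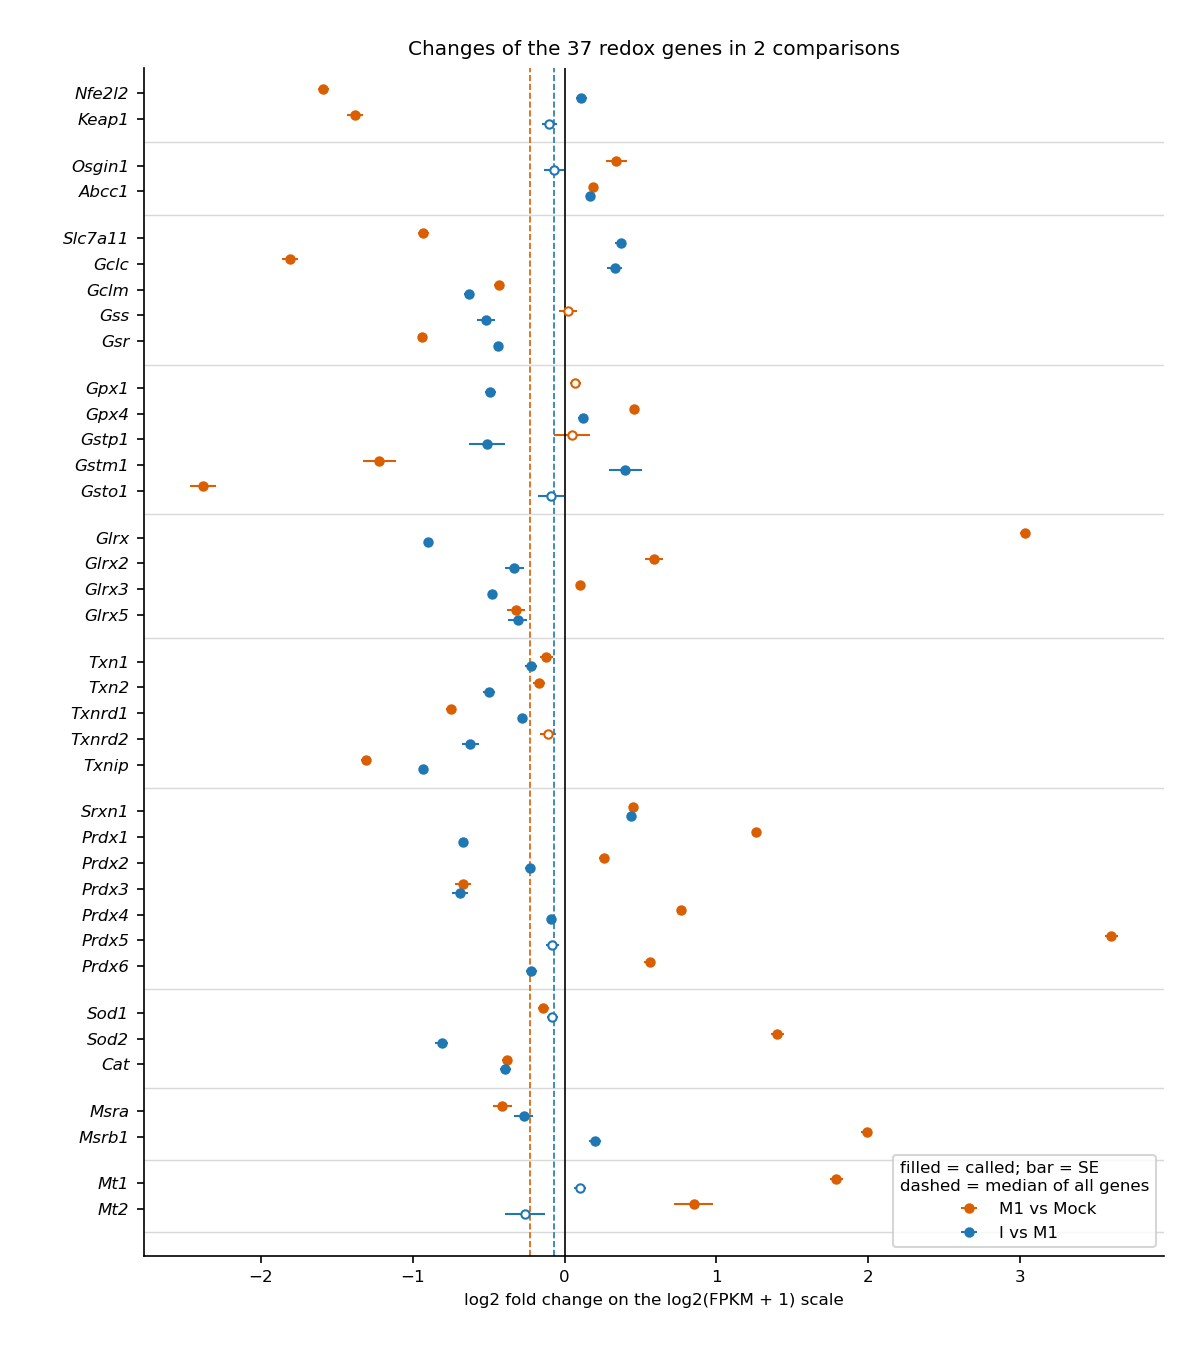
Log2 fold changes on the log2(FPKM + 1) scale with their standard errors (bars) in M1 vs Mock (orange) and I vs M1 (blue). Filled points were called at a limma adjusted p under 0.05, and dashed lines are the median of all genes tested, −0.23 and −0.07.

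Messages of NRF2 itself and of its sensor fell in polarized cells. Nfe2l2, which encodes NRF2 (ENSMUSG00000015839.6, chromosome 2, 75675513 to 75704641, GRCm38), was at 45.8, 44.5 and 41.6 FPKM in Mock, 14, 14.1 and 13.7 in M1 and 15.3, 15.3 and 14.7 in I. All polarized libraries lay below all Mock libraries, a 3.15-fold fall (log2 fold change −1.59 ± 0.037 SE, limma adjusted p = 1.03e-11). The difference between I and M1 was small, at log2 fold change 0.11 ± 0.037 SE, limma adjusted p = 0.0254, and it missed the threshold when M1 replicate 3, I replicate 1 or I replicate 2 was left out (limma adjusted p = 0.0688 to 0.0732).

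Keap1, which encodes the KEAP1 sensor (ENSMUSG00000003308.15, chromosome 9, 21229730 to 21239361), measured 20.8, 22.5 and 21.8 FPKM in Mock, 7.34, 7.81 and 8.11 in M1 and 7.7, 6.9 and 6.83 in I. It fell 2.8-fold in M1 (log2 fold change −1.38 ± 0.051 SE, limma adjusted p = 4.29e-10), and M1 and I overlapped (log2 fold change −0.1 ± 0.051 SE, limma adjusted p = 0.0982). Without M1 replicate 1 or I replicate 1 the difference of I from M1 passed (limma adjusted p = 0.0476 and 0.0212). Exons of an antisense gene, Gm16754, cover 10.9% of the Keap1 exons.

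The 12 measured partners and repressors of NRF2 had 5 higher and 6 lower in M1 vs Mock (8 and 1 with RLE scaling). All genes had 30.5% higher and 55.3% lower there. In I vs M1 4 of the 12 were higher and 6 lower (4 and 4 with RLE), beside 24.9% and 39.3% of all genes. Messages of Maff and Mafk, small Maf proteins that pair with NRF2 on DNA, were higher with iodide. Maff averaged 3.26 ± 0.11, 14.5 ± 0.41 and 20.6 ± 1.4 FPKM in the 3 groups (log2 fold change 0.47 ± 0.048 SE, limma adjusted p = 9.8e-06 for I vs M1). Mafk was at 22.8 ± 0.89, 17.7 ± 1.1 and 25.2 ± 0.48 FPKM in the same order (log2 fold change 0.49 ± 0.044 SE, limma adjusted p = 3.75e-06 for I vs M1). Sqstm1, which encodes p62, a KEAP1-binding autophagy receptor, was at 422 ± 2.7, 499 ± 14 and 442 ± 4 FPKM, and its fall in I vs M1 was small (log2 fold change −0.18 ± 0.025 SE, limma adjusted p = 0.000121).

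Short sequences that resemble an antioxidant response element were looked up upstream of the members, to show which of them carry such letters. The letters TGACNNNGC were searched on both strands of the 250 bases before each RefSeq start (build GRCm38.p6), and a match is a description of letters only. Of 32 members with such a window 6 (18.8%) had a match, beside 11.5% of 27025 genes and 10.2% of 32851 windows. They are Nfe2l2, Gclm, Txnrd1, Prdx1, Sod1 and Mt2, printed with up to 25 bases on each side. The other 26 members have no such letters in this window. Abcc1, Gclc, Gsr, Msra and Prdx6 have no window in the table. Capitals mark the match, which reads TGACNNNGC in Nfe2l2 and Mt2 and its reverse complement in the others. The windows are on chr2:75704870-75704913 (minus strand) for Nfe2l2, chr3:122245398-122245456 for Gclm, chr4:116685441-116685499 for Prdx1, chr8:94172514-94172572 for Mt2, chr10:82859089-82859147 for Txnrd1 and chr16:90220681-90220739 for Sod1, the last 5 on the plus strand.
Nfe2l2: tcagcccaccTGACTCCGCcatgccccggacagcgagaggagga
Gclm: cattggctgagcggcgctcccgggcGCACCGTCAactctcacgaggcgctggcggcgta
Prdx1: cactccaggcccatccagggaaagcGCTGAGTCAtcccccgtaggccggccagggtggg
Mt2: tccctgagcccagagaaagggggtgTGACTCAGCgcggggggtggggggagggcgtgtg
Txnrd1: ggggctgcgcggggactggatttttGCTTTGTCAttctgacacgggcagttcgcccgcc
Sod1: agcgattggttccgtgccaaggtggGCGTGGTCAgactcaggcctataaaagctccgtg
The genes with these letters did not move together, since in M1 vs Mock Prdx1 rose while Nfe2l2, Gclm and Txnrd1 fell. Mt2 passed the filter only through M1 and I and had 1 to 5 fragments per Mock library. Its value in M1 vs Mock is therefore a description and no support for a rise. In M1 vs Mock the log2 fold change was −1.59 for Nfe2l2, −0.43 for Gclm, −0.75 for Txnrd1, 1.26 for Prdx1, −0.14 for Sod1 and 0.85 for Mt2. In I vs M1 it was 0.11, −0.63, −0.28, −0.67, −0.08 and −0.26 in the same order, and the sign of Sod1 in M1 vs Mock turned with RLE, TMM and upper quartile scaling.

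Of the other NRF2 targets among the members, the growth inhibitor gene Osgin1 and the glutathione conjugate exporter gene Abcc1 rose modestly in M1. Abcc1 was at 20.8, 20.3 and 20.1 FPKM in Mock, 23.5, 23.3 and 23.3 in M1 and 25.9, 26.6 and 26.9 in I. The 3 groups did not overlap, and it rose in M1 (log2 fold change 0.19 ± 0.027 SE, limma adjusted p = 5.02e-05) and again in I (log2 fold change 0.17 ± 0.027 SE, limma adjusted p = 0.000273). Osgin1 was at 2.73, 2.94 and 3.17 FPKM in Mock, 4.15, 3.97 and 3.83 in M1 and 4.04, 3.95 and 3.3 in I. M1 lay above Mock (log2 fold change 0.34 ± 0.068 SE, limma adjusted p = 0.000687), and I overlapped M1 (log2 fold change −0.07 ± 0.068 SE, limma adjusted p = 0.401).

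A list of 22 further NRF2 targets had 17 tested genes, of which 10 were higher and 6 lower in M1 vs Mock (11 and 3 with RLE scaling). In I vs M1 3 were higher and 12 lower. Among all genes 30.5% were higher and 55.3% lower in M1 vs Mock, and 24.9% and 39.3% in I vs M1. The medians of the list were 0.43 and −0.28, where those of all genes were −0.23 and −0.07. Blvrb, a biliverdin reductase, Hmox1, the inducible heme oxygenase, and Ftl1, the ferritin light chain, were 3 of the falls with iodide. Each had risen in M1, and its mean in I stayed above that in Mock. Blvrb averaged 9.83 ± 0.63, 59.4 ± 0.63 and 28.3 ± 0.36 FPKM in Mock, M1 and I. Hmox1 was at 129 ± 4.4, 746 ± 9.1 and 476 ± 2.5 FPKM, and Ftl1 at 416 ± 3.5, 1263 ± 20.2 and 735 ± 21 FPKM. Their log2 fold changes in I vs M1 were −1.04, −0.65 and −0.78. Abcc4, an organic anion exporter, went the other way, with 12.3 ± 0.11, 6.71 ± 0.38 and 14.5 ± 0.3 FPKM in Mock, M1 and I (log2 fold change 1.01 ± 0.04 SE, limma adjusted p = 8.29e-09 for I vs M1). The aldo-keto reductase gene Akr1b8 averaged 50.6 ± 2.8, 73.5 ± 2.2 and 88.1 ± 0.89 FPKM in the 3 groups (log2 fold change 0.26 ± 0.038 SE, limma adjusted p = 0.000148 for I vs M1).

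Of the 5 genes of glutathione synthesis and recycling 4 were lower in M1 than in Mock, beside 55.3% of all genes. In I vs M1 Gclm, Gss and Gsr were lower, and Slc7a11 and Gclc were higher. The median log2 fold change of the 5 was −0.93 in M1 vs Mock and −0.44 in I vs M1. For all genes the medians were −0.23 and −0.07. Slc7a11 encodes the light chain of the exchanger that imports cystine, and was at 16.4, 15.1 and 15.9 FPKM in Mock, 7.91, 7.81 and 7.75 in M1 and 10.2, 10.6 and 10.3 in I. Mock was highest and M1 lowest with no overlap, so that it fell 2.01-fold in M1 (log2 fold change −0.93 ± 0.037 SE, limma adjusted p = 8.11e-10) and rose with iodide (log2 fold change 0.37 ± 0.037 SE, limma adjusted p = 9.78e-06). Its heavy chain partner Slc3a2 differed, with 73.3 ± 0.3, 48.1 ± 0.59 and 38.3 ± 0.51 FPKM in Mock, M1 and I (log2 fold change −0.32 ± 0.023 SE, limma adjusted p = 6.61e-07 for I vs M1).

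Glutamate-cysteine ligase performs the rate-limiting step of glutathione synthesis and has a catalytic subunit, Gclc (ENSMUSG00000032350.9, chromosome 9, 77754535 to 77794485), and a modifier subunit, Gclm (ENSMUSG00000028124.15, chromosome 3, 122245557 to 122270732). Gclc was at 22.8, 22.5 and 22.5 FPKM in Mock, 5.88, 5.23 and 6.13 in M1 and 7.15, 7.49 and 7.8 in I. The groups did not overlap, and Gclc fell 3.93-fold in M1 (log2 fold change −1.81 ± 0.051 SE, limma adjusted p = 4.19e-11) and rose 1.3-fold with iodide (log2 fold change 0.33 ± 0.051 SE, limma adjusted p = 0.000198). Gclm was at 11, 11.1 and 11.2 FPKM in Mock, 8.06, 8.12 and 7.86 in M1 and 4.81, 4.85 and 4.78 in I. Here each step was a fall without overlap, 1.39-fold in M1 (log2 fold change −0.43 ± 0.034 SE, limma adjusted p = 2.64e-07) and 1.67-fold with iodide (log2 fold change −0.63 ± 0.034 SE, limma adjusted p = 7.14e-08). The subunits thus moved apart, and the level of Gclc over that of Gclm was 2.03 ± 0.033, 0.718 ± 0.069 and 1.56 ± 0.073 in Mock, M1 and I (mean ± SD, n = 3). Such a ratio within a library does not depend on the scaling between libraries. Exons of Gm17494 and Gm6061 cover 4.71% and 3.88% of the Gclm exons.

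Gss, the synthetase that completes glutathione, was at 3.91, 4.22 and 3.81 FPKM in Mock, 4.12, 4.37 and 3.67 in M1 and 2.59, 2.48 and 2.51 in I. Mock and M1 overlapped (log2 fold change 0.02 ± 0.059 SE, limma adjusted p = 0.758; with RLE scaling 0.27, limma adjusted p = 0.00154), while all I libraries lay below (log2 fold change −0.52 ± 0.059 SE, limma adjusted p = 2.13e-05). Gsr, the reductase that regenerates glutathione from its disulfide, was at 49.1, 49.8 and 49.6 FPKM in Mock, 25.3, 25.7 and 25.2 in M1 and 18.2, 18.9 and 18.3 in I. It fell 1.95-fold in M1 (log2 fold change −0.94 ± 0.026 SE, limma adjusted p = 3.81e-11) and 1.37-fold with iodide (log2 fold change −0.44 ± 0.026 SE, limma adjusted p = 1.67e-07), with no overlap of the groups. Acss2, Gssos1 and Gssos2 on the opposite strand overlap 6.68%, 5.44% and 6.51% of the Gss exons. Acss2 was at 3.48, 5.63 and 3.19 FPKM (means in Mock, M1 and I), and like Gss it was lower in I than in M1 (log2 fold change −0.66). The part of these overlaps in the level of Gss was not tested.

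**Figure D3:**
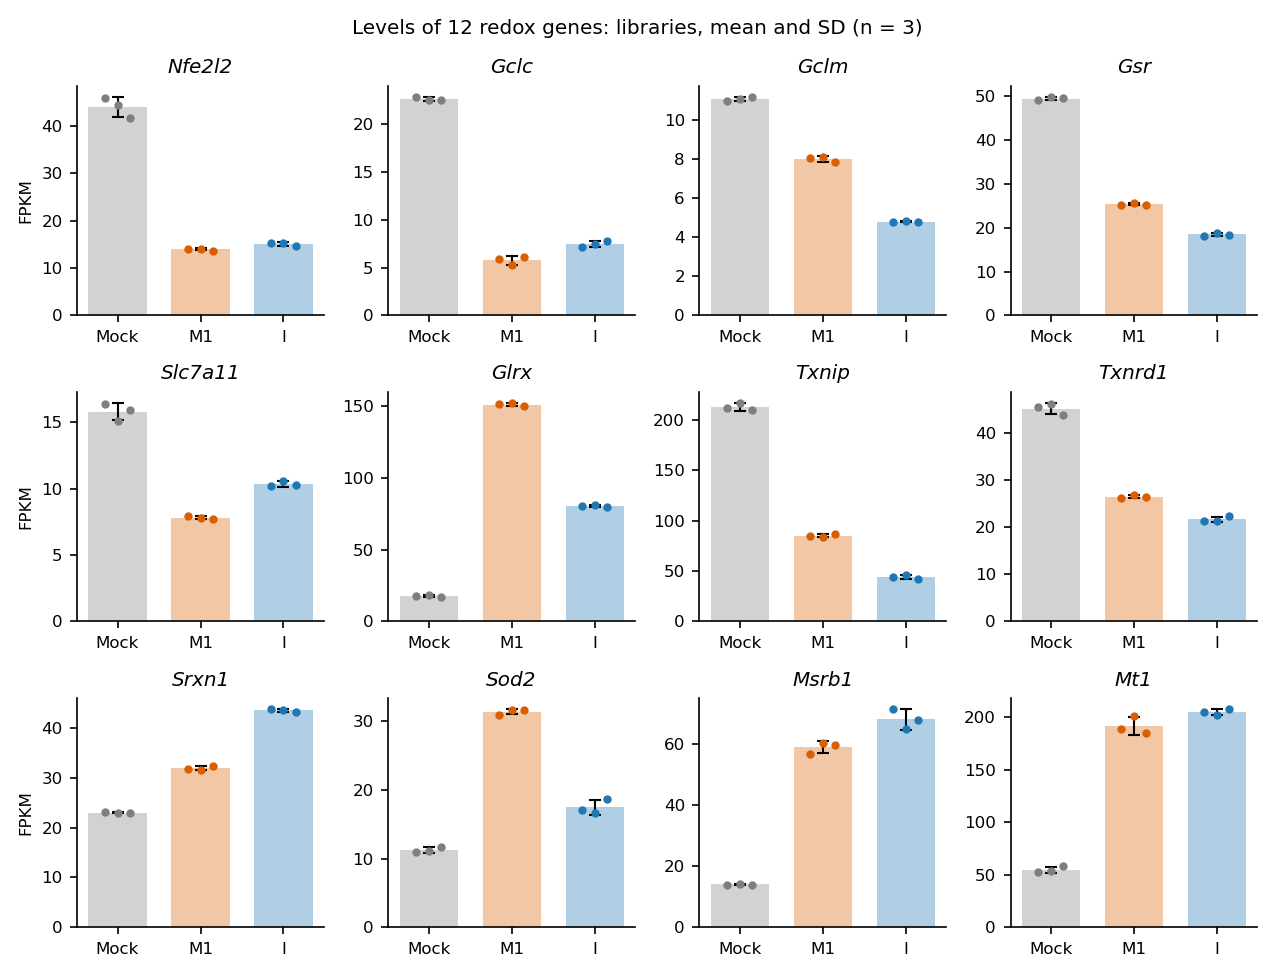
FPKM of 12 of the genes, picked for display after their values were seen, with 1 point per library, bars for the mean and error bars for the SD (n = 3). Gclc and Slc7a11 are lowest in M1, Gclm, Gsr, Txnip and Txnrd1 step down from Mock to M1 to I, and Srxn1 steps up.

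The genes described next belong to the supply of NADPH, the electron source of both glutathione and thioredoxin reductases. Of 9 measured genes of NADPH supply 2 were higher and 7 lower in M1 vs Mock (3 and 5 with RLE scaling). The shares of all genes there were 30.5% and 55.3%. In I vs M1 1 of the 9 was higher and 8 lower (1 and 5 with RLE), beside 24.9% and 39.3% of all genes. Their medians were −0.41 and −0.19, where those of all genes were −0.23 and −0.07. The NAD kinase gene Nadk averaged 104 ± 0.3, 75.7 ± 1.6 and 49.4 ± 0.74 FPKM in the 3 groups (log2 fold change −0.61 ± 0.024 SE, limma adjusted p = 8.85e-09 for I vs M1). The mitochondrial NAD kinase gene Nadk2 was the 1 that was higher with iodide, at 10.1 ± 0.24, 7.33 ± 0.3 and 11.3 ± 0.82 FPKM (log2 fold change 0.56 ± 0.051 SE, limma adjusted p = 4.07e-06). The cytosolic isocitrate dehydrogenase gene Idh1 was at 96 ± 2.1, 57.4 ± 0.32 and 45.9 ± 0.84 FPKM (log2 fold change −0.32 ± 0.025 SE, limma adjusted p = 1.62e-06 for I vs M1).

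Among the genes that use glutathione, the 2 peroxidases parted with iodide. Of the 5 genes 1 was higher and 2 lower in M1 vs Mock (3 and 2 with RLE scaling). Over all genes the shares were 30.5% and 55.3%. In I vs M1 2 of the 5 were higher and 2 lower, beside 24.9% and 39.3% of all genes. Gpx1, the major cytosolic selenium-dependent peroxidase, was at 146, 149.7 and 142 FPKM in Mock, 153, 156 and 152 in M1 and 115, 107 and 105 in I. The change in M1 was small (log2 fold change 0.07 ± 0.036 SE, limma adjusted p = 0.0721; with RLE scaling 0.39, limma adjusted p = 2.17e-06, and without I replicate 1 0.07, limma adjusted p = 0.0222), and all I libraries were lower (log2 fold change −0.49 ± 0.036 SE, limma adjusted p = 7.14e-07). Gpx4, which reduces lipid hydroperoxides in membranes, was at 58.5, 61.4 and 61.6 FPKM in Mock, 82, 84.8 and 83.4 in M1 and 92.1, 92.7 and 87 in I. It rose 1.38-fold in M1 (log2 fold change 0.46 ± 0.032 SE, limma adjusted p = 9.39e-08) and slightly more in I (log2 fold change 0.12 ± 0.032 SE, limma adjusted p = 0.0076), with no overlap. A pseudogene, Gpx4-ps2, can share reads with it.

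Gsto1, an omega class glutathione transferase, showed the largest fall of the 37 genes in M1. It was at 17.8, 18.1 and 19.3 FPKM in Mock, 2.88, 2.78 and 2.56 in M1 and 3.05, 2.1 and 2.44 in I. The fall was 6.72-fold (log2 fold change −2.38 ± 0.085 SE, limma adjusted p = 2.84e-10), and I overlapped M1 (log2 fold change −0.09 ± 0.085 SE, limma adjusted p = 0.367), a difference that passed without I replicate 1 (−0.2, limma adjusted p = 0.0232). Gstm1, a mu class transferase, was at 5.33, 6.23 and 5.31 FPKM in Mock, 1.94, 2.08 and 1.53 in M1 and 3.23, 2.92 and 2.19 in I. It fell in M1 (log2 fold change −1.22 ± 0.11 SE, limma adjusted p = 8.24e-07), and I lay above M1 (log2 fold change 0.4 ± 0.11 SE, limma adjusted p = 0.00752) on 40 to 200 fragments per library. Gstp1, a pi class transferase, was at 3.93, 4.45 and 3.55 FPKM in Mock, 3.18, 4.9 and 4.55 in M1 and 2.8, 2.46 and 2.62 in I. Mock and M1 overlapped (log2 fold change 0.05 ± 0.12 SE, limma adjusted p = 0.667; with RLE scaling 0.3, limma adjusted p = 0.0303 and without M1 replicate 1 0.21, limma adjusted p = 0.034), and I was lower than both (log2 fold change −0.51 ± 0.12 SE, limma adjusted p = 0.00275). Gstp1 and Gstm1 have close paralogs, Gstp2 among them, so their levels are uncertain.

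In a list of 26 other glutathione genes 17 were tested. Of these, 4 were higher and 10 lower in M1 vs Mock (6 and 9 with RLE scaling), and again 4 and 10 in I vs M1. Shares of all genes were 30.5% higher and 55.3% lower in M1 vs Mock, and 24.9% and 39.3% in I vs M1. The glutathione-degrading cyclotransferase genes Chac1 and Chac2 were higher with iodide. Chac1 was at 21.4 ± 0.64, 3.5 ± 0.72 and 6.89 ± 0.83 FPKM in Mock, M1 and I (log2 fold change 0.82 ± 0.1 SE, limma adjusted p = 4.55e-05 for I vs M1). Chac2 was at 7.62 ± 1.4, 7.15 ± 1.5 and 15.7 ± 0.85 FPKM (log2 fold change 1.05 ± 0.14 SE, limma adjusted p = 5.85e-05 for I vs M1). The aminopeptidase gene Anpep, which cleaves the dipeptide left after glutathione breakdown, averaged 13.7 ± 0.2, 65.4 ± 1.8 and 34.7 ± 1.2 FPKM in the 3 groups (log2 fold change −0.9 ± 0.032 SE, limma adjusted p = 4.07e-09 for I vs M1).

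Glutaredoxins use glutathione to reduce mixed disulfides on proteins, and Glrx, a cytosolic member, had the second largest rise of the 37 genes in M1. In M1 vs Mock 3 of the 4 rose and 1 fell (3 and 0 with RLE scaling), beside 30.5% and 55.3% of all genes. In I vs M1 all 4 fell, where 39.3% of all genes did. They fell also with RLE, TMM and upper quartile scaling. Glrx (ENSMUSG00000021591.8, chromosome 13, 75839868 to 75850154) was at 17.4, 18.3 and 17.2 FPKM in Mock, 151, 152 and 149.8 in M1 and 80.1, 81.3 and 79.4 in I. It rose 8.56-fold in M1 (log2 fold change 3.03 ± 0.027 SE, limma adjusted p = 1.16e-14) and fell 1.88-fold with iodide (log2 fold change −0.9 ± 0.027 SE, limma adjusted p = 1.3e-09), so that I stood between the other two without overlap. Relative to Gsr, Glrx was 0.357 ± 0.011, 5.96 ± 0.033 and 4.34 ± 0.049 in Mock, M1 and I (ratio of FPKM).

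Glrx2, a mitochondrial glutaredoxin, was at 2.52, 2.15 and 2.62 FPKM in Mock, 3.96, 4.32 and 4.18 in M1 and 2.93, 3.12 and 3.22 in I. It followed the same order at a far lower level (log2 fold change 0.59 ± 0.061 SE, limma adjusted p = 3.13e-06, and for I vs M1 log2 fold change −0.33 ± 0.061 SE, limma adjusted p = 0.000717). Glrx3 and Glrx5 are monothiol glutaredoxins of iron-sulfur cluster handling, in the cytosol and in mitochondria. Glrx3 was at 30.4, 31 and 30.4 FPKM in Mock, 33.7, 32.2 and 32.5 in M1 and 23, 23.2 and 23.5 in I. The M1 libraries lay just above Mock (log2 fold change 0.1 ± 0.027 SE, limma adjusted p = 0.00621) and the I libraries below both (log2 fold change −0.48 ± 0.027 SE, limma adjusted p = 1.13e-07). Glrx5 was at 11.4, 11.9 and 12.6 FPKM in Mock, 8.35, 9.82 and 9.95 in M1 and 7.43, 7.17 and 7.48 in I. It stepped down in M1 (log2 fold change −0.32 ± 0.06 SE, limma adjusted p = 0.000381), not called with RLE scaling (−0.03, limma adjusted p = 0.595), and again in I (log2 fold change −0.31 ± 0.06 SE, limma adjusted p = 0.00103).

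All 5 genes of the thioredoxin system were lower in I vs M1 (39.3% of all genes were), and also under each scaling tried. Against Mock, 4 of the 5 were lower in M1, beside 55.3% of all genes. With RLE or TMM scaling, however, 3 of the 5 were higher and 2 lower. The clear falls in M1 were in Txnip and Txnrd1. Txnip (ENSMUSG00000038393.14, chromosome 3, 96557957 to 96561883), whose product binds and blocks reduced thioredoxin, was at 212, 217 and 210.1 FPKM in Mock, 85, 84 and 86.8 in M1 and 44.4, 45.7 and 42.5 in I. It fell 2.5-fold in M1 (log2 fold change −1.31 ± 0.029 SE, limma adjusted p = 8.01e-12) and 1.93-fold more with iodide (log2 fold change −0.93 ± 0.029 SE, limma adjusted p = 1.59e-09), the largest fall of the 37 genes in that comparison. Exons of the antisense gene Gm15441 cover 19.4% of the Txnip exons, and its level was 0.383, 0.174 and 0.132 FPKM (means in Mock, M1 and I).

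Txnrd1, the cytosolic selenoprotein that reduces thioredoxin with NADPH, was at 45.6, 46.2 and 43.9 FPKM in Mock, 26.3, 26.8 and 26.4 in M1 and 21.4, 21.4 and 22.3 in I. It stepped down without overlap in M1 (log2 fold change −0.75 ± 0.029 SE, limma adjusted p = 6.03e-10) and in I (log2 fold change −0.28 ± 0.029 SE, limma adjusted p = 1.18e-05). Txnip fell more than Txnrd1, and the ratio of their levels was 4.7 ± 0.072, 3.22 ± 0.072 and 2.04 ± 0.12 in Mock, M1 and I.

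Txn2 and Txnrd2 are the mitochondrial thioredoxin and its reductase. Txn2 was at 22.6, 22.9 and 24.1 FPKM in Mock, 19.8, 21.1 and 20.5 in M1 and 14.5, 13.5 and 14.7 in I. The fall in M1 was slight (log2 fold change −0.17 ± 0.04 SE, limma adjusted p = 0.00192) and turned to a rise with RLE scaling (0.13, limma adjusted p = 0.0124), while the I libraries lay well below (log2 fold change −0.5 ± 0.04 SE, limma adjusted p = 1.72e-06). Txnrd2 was at 5.76, 6.3 and 6.12 FPKM in Mock, 5.42, 5.61 and 5.65 in M1 and 3.58, 3.12 and 3.14 in I. Its difference in M1 (log2 fold change −0.11 ± 0.053 SE, limma adjusted p = 0.0836) also changed sign with RLE scaling (0.16, limma adjusted p = 0.0148) and passed as a fall without I replicate 1 (−0.11, limma adjusted p = 0.0471). It fell 1.7-fold with iodide (log2 fold change −0.62 ± 0.053 SE, limma adjusted p = 2.54e-06). Txn1, the cytosolic thioredoxin and the most abundant of the 37 genes in Mock, had means of 228 ± 6.1, 209 ± 10.5 and 179.8 ± 7.9 FPKM (SD, n = 3). Its fall in M1 (log2 fold change −0.12 ± 0.041 SE, limma adjusted p = 0.0154) missed the threshold without Mock replicate 3 or M1 replicate 3 (limma adjusted p = 0.0587 and 0.0697) and turned to a rise with RLE scaling (0.19, limma adjusted p = 0.0022). The fall with iodide was log2 fold change −0.22 ± 0.041 SE, limma adjusted p = 0.000967. A pseudogene, Txn-ps1, can share its reads.

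**Figure D4:**
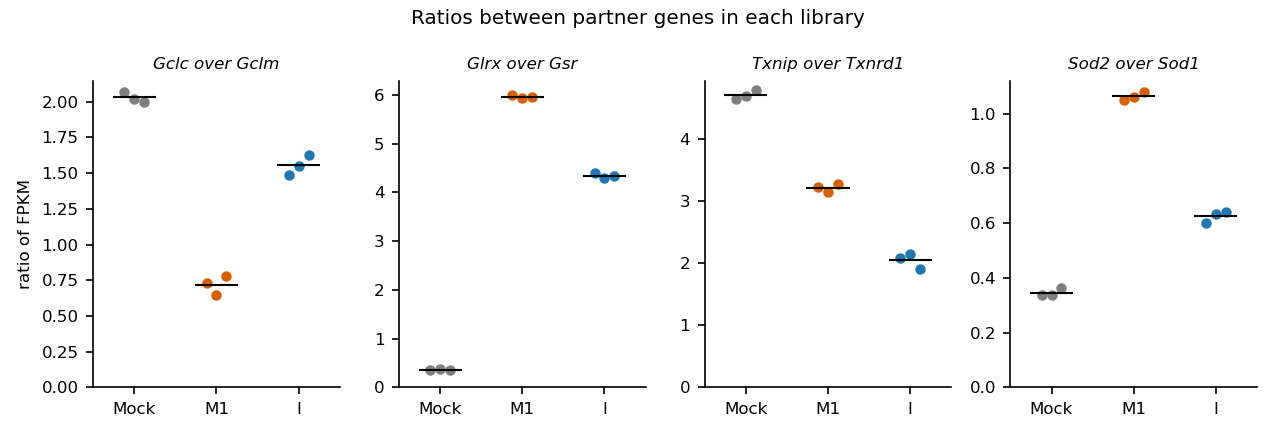
Ratio of the FPKM of partner genes in every library (points) with the group mean (line). The ratio of Gclc to Gclm was lowest in M1, that of Txnip to Txnrd1 stepped down from Mock to I, and those of Glrx to Gsr and Sod2 to Sod1 peaked in M1.

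Of 23 tested genes with a thioredoxin fold or other thiol function, 10 were higher and 9 lower in M1 vs Mock (15 and 6 with RLE scaling). Corresponding shares of all genes were 30.5% and 55.3%. In I vs M1 7 of the 23 were higher and 10 lower (9 and 7 with RLE), beside 24.9% and 39.3% of all genes. The membrane thioredoxin gene Tmx4 rose at each step, with 5.7 ± 0.11, 30.9 ± 1.3 and 45.3 ± 0.85 FPKM in Mock, M1 and I (log2 fold change 0.54 ± 0.035 SE, limma adjusted p = 3.35e-07 for I vs M1). The endoplasmic reticulum oxidase gene Ero1a was at 49.3 ± 1.1, 263 ± 8.2 and 299.5 ± 4.1 FPKM (log2 fold change 0.19 ± 0.028 SE, limma adjusted p = 0.000196 for I vs M1). The cytosolic thioredoxin relative Txndc17 was at 28.2 ± 0.23, 60.4 ± 2 and 48.6 ± 0.74 FPKM (log2 fold change −0.31 ± 0.028 SE, limma adjusted p = 4.59e-06 for I vs M1).

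Peroxiredoxins, the abundant thiol peroxidases, were mostly raised by polarization, and Prdx5 rose most of all 37 genes. With sulfiredoxin, 6 of the 7 genes rose and 1 fell in M1 vs Mock, under every scaling tried. Without rescaling, 30.5% of all genes rose and 55.3% fell in that comparison. In I vs M1 5 of the 7 fell, 1 rose and 1 was not called, beside 39.3% of all genes lower and 24.9% higher. Summed over Prdx1 to Prdx6, the level was 427 ± 7.7, 1286 ± 13 and 1042 ± 23 FPKM in Mock, M1 and I.

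Prdx5 (ENSMUSG00000024953.17, chromosome 19, 6906697 to 6910106), found in mitochondria, peroxisomes and cytosol, was at 45.4, 49.6 and 51.3 FPKM in Mock, 581, 614 and 612 in M1 and 588, 556 and 568 in I. The rise in M1 was 12.4-fold (log2 fold change 3.6 ± 0.043 SE, limma adjusted p = 8.29e-14), with a wide gap between Mock and the polarized groups. M1 and I overlapped (log2 fold change −0.08 ± 0.043 SE, limma adjusted p = 0.132), although limma-voom called a small fall (−0.08, limma adjusted p = 0.0113). Trmt112 on the opposite strand overlaps 19.1% of the Prdx5 exons, and it went from 26.1 to 11.6 FPKM in M1 and was at 11.3 in I. The share of Prdx5 in the summed peroxiredoxin level was 11.4 ± 0.53%, 46.9 ± 1% and 54.7 ± 0.33% in Mock, M1 and I.

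Prdx1 (ENSMUSG00000028691.12, chromosome 4, 116685544 to 116700822), the main cytosolic peroxiredoxin, was at 194, 203 and 196 FPKM in Mock, 483, 474 and 465 in M1 and 303, 295 and 297 in I. It rose 2.4-fold in M1 (log2 fold change 1.26 ± 0.026 SE, limma adjusted p = 4.32e-12) and fell 1.59-fold with iodide (log2 fold change −0.67 ± 0.026 SE, limma adjusted p = 7.27e-09), and I stayed above Mock with no overlap. Its share of the summed level was 46.3 ± 0.65%, 36.9 ± 0.99% and 28.6 ± 0.22% in the 3 groups, so the order of Prdx1 and Prdx5 was reversed between Mock and the polarized cells. Pseudogenes can share its reads.

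Prdx3, the peroxiredoxin of mitochondria, was the member of the family that fell in M1. It was at 65.5, 62 and 66.2 FPKM in Mock, 41.3, 39.5 and 39.7 in M1 and 25.2, 26.3 and 22.4 in I. The groups did not overlap, with a fall in M1 (log2 fold change −0.67 ± 0.051 SE, limma adjusted p = 2e-07) and one of like size with iodide (log2 fold change −0.69 ± 0.051 SE, limma adjusted p = 8.9e-07). Srxn1 encodes sulfiredoxin, which repairs peroxiredoxins inactivated by overoxidation, and was at 23.2, 22.9 and 22.9 FPKM in Mock, 31.8, 31.5 and 32.4 in M1 and 43.7, 43.6 and 43.2 in I. It rose in M1 (log2 fold change 0.45 ± 0.024 SE, limma adjusted p = 9.01e-09) and again with iodide (log2 fold change 0.44 ± 0.024 SE, limma adjusted p = 9.46e-08), the largest rise of the 37 genes in I vs M1 on the log2(FPKM + 1) scale, although the ratio of mean FPKM was larger for Gstm1 (1.5-fold) than for Srxn1 (1.36-fold).

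Prdx4, the peroxiredoxin of the endoplasmic reticulum, was at 33.1, 35.1 and 34.4 FPKM in Mock, 60.1, 57.4 and 59.2 in M1 and 55.6, 54.7 and 55.4 in I. It rose in M1 (log2 fold change 0.77 ± 0.029 SE, limma adjusted p = 4.44e-10). A small fall with iodide (log2 fold change −0.09 ± 0.029 SE, limma adjusted p = 0.0175) was lost with RLE scaling (−0.02, limma adjusted p = 0.458) and without M1 replicate 1 or I replicate 2 (limma adjusted p = 0.0556 and 0.0529). Prdx2, a cytosolic relative of Prdx1, had means of 41.5 ± 1.3, 49.8 ± 0.52 and 42.3 ± 1.2 FPKM in Mock, M1 and I, and Prdx6, the family member with a single active cysteine, 40.6 ± 0.54, 60.4 ± 2.9 and 51.7 ± 1.6. Both were higher in M1 (Prdx2 log2 fold change 0.26 ± 0.031 SE, limma adjusted p = 9.89e-06; Prdx6 log2 fold change 0.56 ± 0.037 SE, limma adjusted p = 6e-08) and lower in I than in M1 (Prdx2 log2 fold change −0.23 ± 0.031 SE, limma adjusted p = 6.84e-05; Prdx6 log2 fold change −0.22 ± 0.037 SE, limma adjusted p = 0.000382). Junb and Rnaseh2a on the opposite strand overlap 5.67% and 5.8% of the Prdx2 exons. Junb was at 121, 219 and 424 FPKM and Rnaseh2a at 7.67, 2.71 and 2.16 (means in Mock, M1 and I). Unlike Prdx2, Junb was higher in I than in M1 (log2 fold change 0.95), while Rnaseh2a was lower (−0.23). The part of these overlaps in the level of Prdx2 was not tested.

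**Figure D5:**
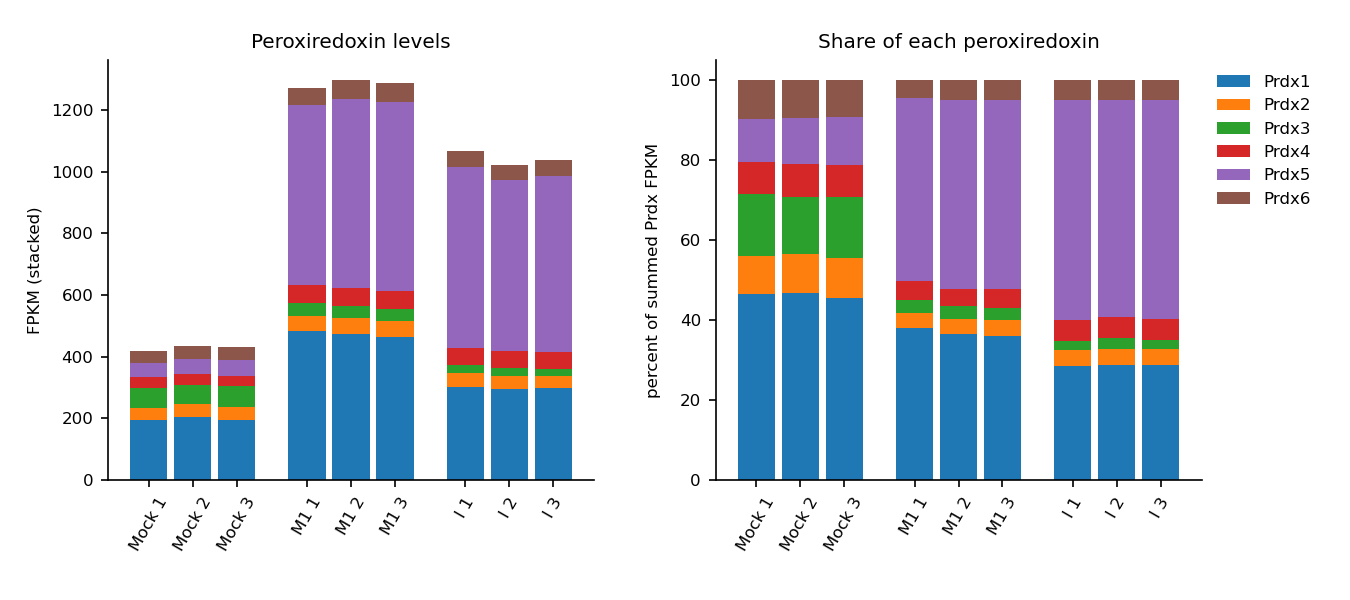
Stacked FPKM of Prdx1 to Prdx6 (left) and the share of each in their sum (right), 1 bar per library. Prdx5 holds 10.8% to 11.9% of the sum in Mock and 45.7% to 55% in the polarized libraries, while Prdx3 holds 14.3% to 15.6% in Mock and 2.16% to 3.25% in the polarized libraries.

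Of the enzymes that remove superoxide and peroxide directly, the mitochondrial manganese dismutase Sod2 changed most. Of the 3 genes 1 was higher and 2 lower in M1 vs Mock (2 and 0 with RLE scaling). As shares of all genes, 30.5% were higher and 55.3% lower. In I vs M1 2 of the 3 were lower, beside 39.3% of all genes. Sod2 (ENSMUSG00000006818.5, chromosome 17, 13006846 to 13040063) was at 11, 11.1 and 11.7 FPKM in Mock, 31, 31.7 and 31.6 in M1 and 17.1, 16.6 and 18.7 in I. It rose 2.79-fold in M1 (log2 fold change 1.4 ± 0.043 SE, limma adjusted p = 8.34e-11) and fell 1.8-fold with iodide (log2 fold change −0.81 ± 0.043 SE, limma adjusted p = 6.78e-08), with I between Mock and M1. Sod1, the copper-zinc dismutase of the cytosol, was at 32.7, 32.8 and 32.1 FPKM in Mock, 29.6, 29.8 and 29.2 in M1 and 28.4, 26.2 and 29.2 in I. The fall in M1 was slight (log2 fold change −0.14 ± 0.037 SE, limma adjusted p = 0.005) and became a rise with RLE scaling (0.17, limma adjusted p = 0.00153). Between I and M1 the difference was not called (log2 fold change −0.08 ± 0.037 SE, limma adjusted p = 0.0865), but it passed without I replicate 3 (−0.11, limma adjusted p = 0.0266). The ratio of Sod2 to Sod1, which no scaling alters, was 0.346 ± 0.015, 1.06 ± 0.017 and 0.625 ± 0.02 in Mock, M1 and I.

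Cat, the catalase of peroxisomes, was at 42.5, 39.9 and 41.8 FPKM in Mock, 31.1, 32.3 and 31.6 in M1 and 24.6, 23.1 and 24.3 in I. The libraries stepped down without overlap, in M1 (log2 fold change −0.38 ± 0.034 SE, limma adjusted p = 9.22e-07, not called with RLE scaling at −0.07, limma adjusted p = 0.0878) and in I (log2 fold change −0.39 ± 0.034 SE, limma adjusted p = 3.3e-06).

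Methionine sulfoxide reductases repair oxidized methionine, and the 2 measured went in opposite directions. Msrb1, a selenoprotein, was at 13.9, 14.2 and 14 FPKM in Mock, 56.7, 60.3 and 59.6 in M1 and 71.3, 64.6 and 67.8 in I. It rose 4.2-fold in M1 (log2 fold change 1.99 ± 0.038 SE, limma adjusted p = 2.2e-12) and slightly more in I (log2 fold change 0.2 ± 0.038 SE, limma adjusted p = 0.000771), with no overlap. Msra was low throughout, at 1.71, 1.63 and 1.85 FPKM in Mock, 1.02, 0.99 and 1.15 in M1 and 0.813, 0.646 and 0.641 in I. It fell in M1 (log2 fold change −0.41 ± 0.062 SE, limma adjusted p = 7.35e-05) and again in I (log2 fold change −0.27 ± 0.062 SE, limma adjusted p = 0.00265) on 51 to 187 fragments per library.

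The 5 selenoproteins among the 37 genes thus did not share a direction with iodide, since Gpx1, Txnrd1 and Txnrd2 were lower and Gpx4 and Msrb1 higher in I vs M1. In a list of 19 other selenoproteins and genes of selenocysteine insertion with 18 tested, 5 were higher and 11 lower in M1 vs Mock (5 and 9 with RLE scaling). Of all genes 30.5% were higher and 55.3% lower in that comparison. In I vs M1 2 of the list were higher and 11 lower (3 and 11 with RLE), beside 24.9% and 39.3% of all genes. The medians of the list were −0.39 and −0.22, where those of all genes were −0.23 and −0.07. Sephs2, which makes the selenium donor, was at 48 ± 0.38, 32.5 ± 1.3 and 25.7 ± 0.88 FPKM in Mock, M1 and I (log2 fold change −0.33 ± 0.035 SE, limma adjusted p = 1.37e-05 for I vs M1). Selenoh, a selenoprotein of the nucleus, was at 22.7 ± 0.83, 11.8 ± 0.81 and 6.75 ± 0.61 FPKM (log2 fold change −0.73 ± 0.062 SE, limma adjusted p = 2.57e-06 for I vs M1).

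Metallothioneins are small cysteine-rich proteins that bind zinc and copper, and Mt1 was a strong rise in polarized cells. Mt1 (ENSMUSG00000031765.8, chromosome 8, 94179082 to 94180327) was at 52.3, 53.9 and 58.1 FPKM in Mock, 189, 201 and 185 in M1 and 205, 202 and 208 in I. It rose 3.49-fold in M1 (log2 fold change 1.79 ± 0.041 SE, limma adjusted p = 9.29e-12), with all polarized libraries above Mock. All I libraries lay above the M1 libraries, by an amount that was not called (log2 fold change 0.1 ± 0.041 SE, limma adjusted p = 0.0566) but was with RLE, TMM and upper quartile scaling, limma-voom, or without Mock replicate 1, Mock replicate 3 or M1 replicate 2 (limma adjusted p = 0.00402 to 0.0447).

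Mt2 (ENSMUSG00000031762.7, chromosome 8, 94172664 to 94173568), its neighbour on the same strand, was at 0.334, 0.39 and 0.0843 FPKM in Mock, 1.71, 1.01 and 1.15 in M1 and 0.802, 1.2 and 0.707 in I. These values are 5, 4 and 1 fragments in Mock, 20, 13 and 12 in M1 and 10, 13 and 8 in I, so Mt2 was far below Mt1 in each library. It passed the filter of 0.5 FPKM in 3 libraries only through M1 and I, where it is high, so that its difference of M1 from Mock (log2 fold change 0.85 ± 0.13 SE, limma adjusted p = 0.000117), on 1 to 5 fragments per Mock library, is a description and no support for a rise. M1 and I overlapped (log2 fold change −0.26 ± 0.13 SE, limma adjusted p = 0.111), a difference that passed without I replicate 2 (−0.37, limma adjusted p = 0.0379). Exons of the antisense gene Gm45774 cover 73.5% of the Mt2 exons. Without strand, reads of the pair cannot be told apart, and the part of this overlap in the level of Mt2 was not tested.

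The stretch upstream of both genes is shown because metallothionein promoters are known for metal response elements, which bind the zinc sensor MTF1. The letters TGCACNC and TGCGCNC were searched on both strands of the same 250 bases. A match was found in 9 of 32 members (28.1%), beside 23.8% of genes and 21.4% of windows, and the match in Gclm furthest from the start overlaps its TGACNNNGC match. Each window of 140 bases ends 10 bases before the RefSeq start and lies on the plus strand, at chr8:94178939-94179078 for Mt1 and chr8:94172468-94172607 for Mt2. Bases after the RefSeq start were not searched, so the number of matches is not a count of elements in either promoter. Capitals mark the matches, 1 in Mt1 and 2 in Mt2, which has a further match outside the window shown.
Mt1: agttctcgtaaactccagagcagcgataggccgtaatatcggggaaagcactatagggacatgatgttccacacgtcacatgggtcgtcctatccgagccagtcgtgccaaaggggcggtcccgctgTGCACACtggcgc
Mt2: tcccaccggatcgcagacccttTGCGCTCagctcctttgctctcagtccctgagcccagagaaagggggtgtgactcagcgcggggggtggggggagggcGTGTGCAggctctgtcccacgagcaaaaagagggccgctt
The other 7 members with such letters are Gclm, Gstm1, Glrx, Txnrd2, Txnip, Srxn1 and Prdx4, whose log2 fold changes in M1 vs Mock were −0.43, −1.22, 3.03, −0.11, −1.31, 0.45 and 0.77, that of Txnrd2 turning positive with RLE, TMM and upper quartile scaling.

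Of 16 genes of metal transport and response, 7 were higher and 7 lower in M1 vs Mock (9 and 5 with RLE scaling). Across all genes 30.5% were higher and 55.3% lower there. In I vs M1 8 of the 16 were higher and 6 lower, beside 24.9% and 39.3% of all genes. The zinc exporter Slc30a1, itself a target of MTF1, stepped down, and averaged 5.83 ± 0.38, 3.06 ± 0.36 and 1.39 ± 0.13 FPKM in the 3 groups (log2 fold change −0.76 ± 0.073 SE, limma adjusted p = 6.25e-06 for I vs M1). The copper exporter Atp7a stepped up, at 6.86 ± 0.46, 12.2 ± 0.54 and 20.1 ± 1.5 FPKM (log2 fold change 0.68 ± 0.06 SE, limma adjusted p = 3.14e-06 for I vs M1). The copper importer Slc31a1 was at 17.2 ± 0.26, 46.7 ± 0.93 and 31.9 ± 0.76 FPKM (log2 fold change −0.54 ± 0.029 SE, limma adjusted p = 7.24e-08 for I vs M1).

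Ranked by mean level, Txn1, Txnip, Prdx1 and Gpx1 led in Mock, at 228 ± 6.1, 213 ± 3.5, 198 ± 4.6 and 146 ± 3.7 FPKM. In M1 the leading genes were Prdx5, Prdx1, Txn1 and Mt1, at 602 ± 19, 474 ± 9.2, 209 ± 10.5 and 191 ± 8.2 FPKM, of which Txn1 and Mt1 overlapped. In I they were Prdx5, Prdx1, Mt1 and Txn1, at 570.3 ± 16, 298 ± 4.4, 205 ± 3.1 and 179.8 ± 7.9 FPKM, without overlap. The summed level of the 37 genes was 1611 ± 17, 2553 ± 34 and 2111 ± 43 FPKM in Mock, M1 and I. In I vs Mock, Txnip (log2 fold change −2.24 ± 0.029 SE, limma adjusted p = 1.37e-13) and Gsto1 (log2 fold change −2.47 ± 0.085 SE, limma adjusted p = 1.89e-10) were far below Mock, and Prdx5 (log2 fold change 3.52 ± 0.043 SE, limma adjusted p = 8.77e-14), Msrb1 (log2 fold change 2.2 ± 0.038 SE, limma adjusted p = 8.86e-13) and Glrx (log2 fold change 2.12 ± 0.027 SE, limma adjusted p = 1.26e-13) were far above it. Prdx2 was the 1 gene not called in I vs Mock (log2 fold change 0.03 ± 0.031 SE, limma adjusted p = 0.408), and it was called with RLE, TMM and upper quartile scaling.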

How the data were processed

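The authors deposited 1 FPKM table per library, the unit being inferred here because no header names it. The tools named per the submitters' processing notes are fastp 0.20.1, HISAT2 2.2.1 and featureCounts 2.0.1, with the build GRCm38. For strand use and annotation, the sources used here give nothing. FPKM times the GENCODE vM21 exon length gave whole fragments within 0.05 in 98.4% to 98.6% of values and in all libraries for 11996 genes.

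Rows with at least 0.5 FPKM in at least 3 libraries (11156 of 12474) were fitted with limma 3.58.1 (R 4.3.3) on log2(FPKM + 1), with all 9 libraries in 1 model, and p-values were adjusted by Benjamini-Hochberg over all of them. Fold changes on that scale understate low genes, and folds are ratios of mean FPKM. Every row is above 0 in all libraries, so genes at 0 anywhere are not analysed here. Members and the 7 linked lists (132 genes, 112 tested, Txnl4a left out because it has 2 rows) were chosen with earlier results of these data known. Lists were described by counts, with no set test. Members with values printed per library are the 3 largest changes per role in either comparison. From a linked list, the genes named are among the 3 with the smallest p in each direction in I vs M1. The model was tested on simulated data. Alternatives were 3 scalings, a pseudocount of 0.1, other filters, limma-voom, a replicate block and leaving out each library.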

Additional observations from a re-analysis of the deposited data

How the results depend on the processing

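Counts of calls among the 37 genes stayed within 1.5 times of those reported under each alternative. Leaving out 1 library at a time gave 32 to 35 calls in M1 vs Mock, 29 to 31 in I vs M1 and 36 in I vs Mock. Against Mock the scaling mattered. Genes of the linked lists called lower in M1 vs Mock numbered 56, or 37 with TMM. Genes higher in I vs Mock numbered 3146 in all, or 4783 with RLE and 4858 with TMM. In M1 vs Mock the sign turned, with RLE, TMM and upper quartile scaling, for Txn1 (0.19, 0.2 and 0.08), Txn2 (0.13, 0.14 and 0.03), Sod1 (0.17, 0.18 and 0.07) and Txnrd2 (0.16, 0.17 and 0.07). In I vs Mock it turned for Sod1 (0.16, 0.17 and 0.04), for Txn1 (0.04 with RLE and 0.06 with TMM) and for Glrx3 (0 with TMM). These are log2 fold changes, and the cause was not tested. In I vs M1 no called gene of the 37 changed sign. A pseudocount of 0.1, no filter and a filter of 1 FPKM changed no call among the 37. The values showed no pairing by replicate number: deviations from the group mean correlated at −0.12 to 0.05 in 9 same-numbered pairs. That cannot tell whether same-numbered libraries were prepared together. With the replicate as a block the calls among the 37 were 33 in M1 vs Mock, 30 in I vs M1 and 36 in I vs Mock, as without it. A count model other than limma-voom was not run. Depth limits Mt2, with 1 to 20 fragments.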
